A study of Rattus norvegicus with 12 samples.

Results

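The genes described here are 35 targets of the tumour suppressor p53 and genes of the DNA damage response, taken from the table by name, in rat INS-1 832/13 insulinoma cells that carried ChREBPβ or a control virus. Of the 35, 34 had an entry among the 28727 named genes of the count table. Chek1 is not analysed here. Pidd1, a scaffold of a death-inducing complex, had 0 to 8 counts a library and was left out as too low to test, so 33 members were tested among 14669 genes.

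INS-1 832/13 is a clonal, insulin-secreting rat β-cell tumour line, so the libraries describe 1 transformed line and no primary β cell. All cells carried an adenovirus, expressing either GFP, the control, or mCherry-tagged mouse ChREBPβ, and spent 48 h in glucose at 2 or 11 mM, which gave 4 groups of 3 libraries (replicates a, b and c). ChREBPβ, a truncated product of the Mlxipl gene, is a transcription factor of glucose metabolism and lacks the domain that restrains the long isoform in low glucose. The protein and its fluorescent tag changed together, so their effects cannot be told apart. The study describes the replicates as independent experiments, while the labels give only a letter, and the p-values measure the spread between these libraries.

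p53 is a transcription factor that damage kinases stabilise and that binds DNA as a tetramer, through pairs of a decameric half-site. Its targets arrest the cell cycle, repair DNA, kill the cell or, in the case of Mdm2, remove p53 itself. Several of the targets also answer to other stress factors, so their levels alone do not measure p53 activity. In β cells the same genes are known from work on proliferation, ageing and stress.

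The 3 Gadd45 genes encode small acidic stress proteins that act on MAP kinases and the cell cycle, and with ChREBPβ Gadd45a and Gadd45b rose while Gadd45g was not called, so the 250 bases before their start sites are shown first. The sequences are from RefSeq on the GRCr8 build, which is not the build of the counts. Each is read 5′ to 3′ on the gene's strand. Capitals mark a p53 half-site in Gadd45a, at position -48 from the start, and the E-box CACGTG, the core of the element that ChREBP and other basic helix-loop-helix proteins bind, in Gadd45b (-178) and Gadd45g (-163).
Gadd45a, chr4:97486800-97487049 (-): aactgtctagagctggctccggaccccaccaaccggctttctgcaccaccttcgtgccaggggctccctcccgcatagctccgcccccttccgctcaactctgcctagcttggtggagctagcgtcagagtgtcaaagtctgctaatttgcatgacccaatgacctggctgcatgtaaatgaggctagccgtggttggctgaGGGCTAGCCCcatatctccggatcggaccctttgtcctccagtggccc
Gadd45b, chr7:9430719-9430968 (-): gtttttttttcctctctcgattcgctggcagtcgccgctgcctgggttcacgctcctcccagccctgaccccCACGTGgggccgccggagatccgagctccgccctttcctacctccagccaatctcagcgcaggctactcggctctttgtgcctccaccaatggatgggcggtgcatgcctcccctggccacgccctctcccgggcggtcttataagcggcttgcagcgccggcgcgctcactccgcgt
Gadd45g, chr17:13530352-13530601 (-): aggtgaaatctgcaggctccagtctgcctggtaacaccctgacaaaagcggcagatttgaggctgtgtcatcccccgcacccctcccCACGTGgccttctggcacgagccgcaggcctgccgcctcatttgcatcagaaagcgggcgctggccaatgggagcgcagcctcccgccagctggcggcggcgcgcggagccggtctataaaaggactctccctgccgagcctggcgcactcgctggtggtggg

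RefSeq promoter windows (250 bases before to 50 after the start) were matched for 29 of the 35 members. Those of Zmat3, Tp53inp1, Rrm2b, Ddb2, Bax and Chek2 were not used here. A p53 half-site, searched on both strands, lay in 6 of the 29 windows and in 7.98% of all 33469 windows, and no member window held a full site, a tandem of half-sites, which 0.0598% of all windows did. The E-box CACGTG lay in 4 of the 29, Gadd45b, Gadd45g, Aen and Eda2r, and in 6.42% of all windows. Besides Gadd45a, the half-site lay before the start in 4 members, shown in capitals with the bases around it, since 2 of them rose with ChREBPβ and 2 were not called in any comparison.
Ccng1, chr10:25685089-25685118 (-): agacctgcccGGGCAAGCCTtggcattgaa
Aen, chr1:142224493-142224522 (+): agccgaagccGGGCATGTCCgggcaagcaa
Sesn1, chr20:46948537-46948566 (+): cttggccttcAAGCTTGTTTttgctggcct
Ei24, chr8:44699431-44699460 (-): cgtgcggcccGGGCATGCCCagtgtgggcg
The remaining half-site was in the window of Pidd1. A match describes these letters and is not a binding site, and a window without one says nothing of the factor.

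The libraries held 25754488 to 60531215 counts, fewest with GFP at 2 mM (25754488 to 32938546) and most with ChREBPβ at 11 mM (57088794 to 60531215). Counts were scaled by TMM (trimmed mean of M-values), with factors of 1.01 to 1.06 with GFP and 0.958 to 0.977 with ChREBPβ. The factors thus split by virus, and results scaled by library totals alone are given below. Levels are given as CPM, counts scaled to a common library size, which follow transcript length and so are compared only within a gene. Mlxipl itself did not rise with the virus (log2 fold change -0.33 ± 0.052 at 2 mM and -0.14 ± 0.051 at 11 mM), and the entry ChREBPb was higher by 0.21 ± 0.065 and 0.37 ± 0.064, so these entries gave no check of the labels for the mouse transgene. All 10 β-cell markers were present, at a sum of 30020 to 33157 CPM with GFP and 16285 to 16910 with ChREBPβ at 2 mM, and of 24294 to 26539 and 15791 to 16149 at 11 mM. Ins1, Chga and Chgb made up most of that sum. Gene by gene, at each glucose level the ChREBPβ libraries all lay below the GFP libraries for 9 of the 10 and above them for Slc2a2, the glucose transporter GLUT2 (means of 438 and 618 CPM at 2 mM and of 489 and 675 at 11 mM). Of all genes tested, 32.1% lay below and 31.2% above in this way at 2 mM, and 29.7% and 26.4% at 11 mM. Of the 4 markers of other islet cells, Gcg made up nearly all of the sum (1591 to 1721 CPM with GFP, 431 to 503 with ChREBPβ) and Sst and Ppy were near 0. Acinar and duct markers summed to at most 0.0731 CPM, fibroblast markers to 3.39 to 8.82, endothelial markers to 0.512 to 1.86 and leucocyte markers to 0.268 to 1.18. These sums cover the markers with an entry: 5 of 6 acinar and duct, 4 of 5 fibroblast, 2 of 3 endothelial and 3 of 4 leucocyte markers. Of these, Prss1, Cftr, Dcn, Lum and Ptprc were at 0 in every library. The lower β-cell sum, carried by 9 of its 10 markers, and the lower Gcg accompanied every virus comparison below, and their part in the results was not tested. In bulk RNA, fewer cells of a type and less RNA per cell cannot be told apart.

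The first question was what ChREBPβ did to the p53 target and damage genes at each glucose concentration. At 2 mM, 12 of the 33 rose and 7 fell (called where edgeR's quasi-likelihood test gave a Benjamini-Hochberg adjusted p below 0.05 and the fold change reached the study's minimum of 1.2). That is 57.6% of the members, against 44.1% of all genes tested, of which 21% rose and 23.2% fell. At 11 mM 15 rose and 4 fell, again 57.6%, against 33.4% of all genes (14.3% rose and 19.1% fell). The members were chosen with earlier results of these data known, so these shares do not test the group. The 12 that rose at 2 mM were all among the 15 at 11 mM (100% of the first list and 80% of the second), and the 4 that fell at 11 mM were all among the 7 at 2 mM (100% and 57.1%). Both lists of rises include Eda2r, which passed the low-count filter only through its ChREBPβ libraries. Without it the lists held 11 and 14 members, and the 11 were all among the 14. The virus comparisons at 2 and 11 mM share no library. The overlap of calls over all genes was not computed, so these shares have no background beside them.

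The median log2 fold change of the members was 0.14 at 2 mM and 0.22 at 11 mM, beside -0.017 and -0.017 over all genes. The 3 libraries with ChREBPβ lay apart from the 3 with GFP in 24 of the 33 at 2 mM (17 above and 7 below; 63.3% of all genes, 31.2% above and 32.1% below) and in 28 at 11 mM (19 above and 9 below; 56.1% of all genes, 26.4% above and 29.7% below). Leaving out Eda2r, the largest rises were those of Gadd45a, Plk2 and Phlda3, and the largest falls at 2 mM those of Perp, Tigar and Rrm2b. Tested against 1.2-fold itself (edgeR's glmTreat), 11 rose and 5 fell at 2 mM, and 8 rose and 3 fell at 11 mM. Without ChREBPβ replicate a at 11 mM, 7 members fell at 11 mM. One member, Eda2r, passed the low-count filter only through the ChREBPβ libraries. Without it 11 rose and 7 fell at 2 mM and 14 rose and 4 fell at 11 mM, 56.25% of 32 at each. The medians were then 0.13 and 0.20. The ChREBPβ libraries lay apart for 16 above and 7 below at 2 mM, and for 18 above and 9 below at 11 mM. Scaled by library totals alone, the median over all genes moved to -0.12 at 2 mM and -0.10 at 11 mM, and the members split 12 to 7 and 11 to 9. With that scaling 33.2% and 29.3% of all called genes were higher, in place of 47.5% and 42.9%.

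**Figure D1:**
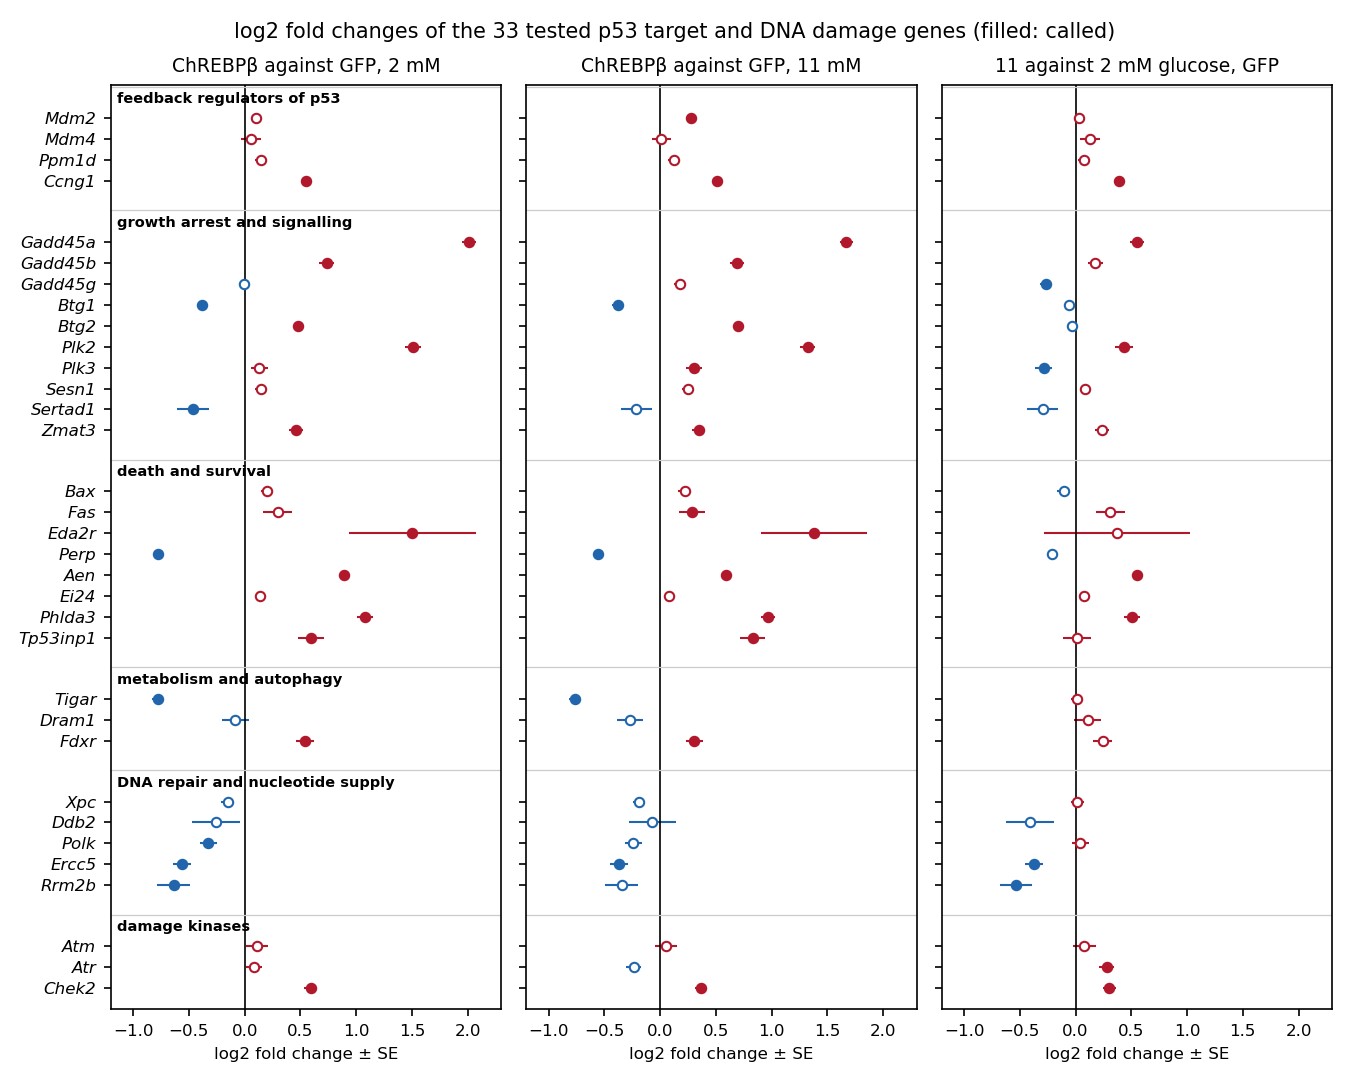
Log2 fold change (horizontal axis, bars ± SE) of the 33 tested members, grouped by role, for ChREBPβ against GFP at 2 mM and at 11 mM and for 11 against 2 mM glucose with GFP; red marks positive and blue negative values, and filled points passed adjusted p under 0.05 and 1.2-fold. Gadd45a reached 2.01 and 1.67 with ChREBPβ, while no member of the repair group lay above 0 with ChREBPβ at either glucose level.

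Of the feedback regulators of p53, Ccng1 rose at both glucose levels, Mdm2 was called only at 11 mM, and Mdm4 and Ppm1d were not called. Ccng1 encodes cyclin G1, which brings a phosphatase to Mdm2. It stood at 339, 330.5 and 352 CPM in GFP cells at 2 mM, 435, 449.9 and 454 in GFP cells at 11 mM, 504, 499 and 493 in ChREBPβ cells at 2 mM and 616, 626 and 659 in ChREBPβ cells at 11 mM. The 4 groups did not overlap. The log2 fold change with ChREBPβ was 0.55 ± 0.039 (adjusted p = 2.96e-10) at 2 mM and 0.51 ± 0.039 (adjusted p = 1.36e-09) at 11 mM. Mdm2, the ubiquitin ligase that marks p53 for degradation, had values of 0.10 ± 0.046 (adjusted p = 0.0758) and 0.28 ± 0.045 (adjusted p = 4.16e-05), and their difference was 0.18 ± 0.065 (adjusted p = 0.105), which did not pass the test. Its call at 11 mM was lost without ChREBPβ replicate b (0.26) or c (0.26) or GFP replicate b (0.26), where it was just short of 1.2-fold, and with scaling by library totals (0.19). Mdm4, the relative that blocks p53's activation domain, gave 0.058 ± 0.087 and 0.010 ± 0.083. Ppm1d, the phosphatase that switches off p53 and the damage kinases, gave 0.15 ± 0.054 (adjusted p = 0.0251) and 0.12 ± 0.052 (adjusted p = 0.0619), under the minimum fold change.

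In the growth arrest and signalling group, 5 of 10 rose and 2 fell at 2 mM (of all genes, 21% rose and 23.2% fell), and 6 rose and 1 fell at 11 mM (14.3% and 19.1%). Gadd45a moved most. It was at 16.5, 16.5 and 18.6 CPM in GFP cells at 2 mM, 24.8, 24.7 and 26.2 in GFP cells at 11 mM, 66.4, 69.4 and 72.0 in ChREBPβ cells at 2 mM and 75.8, 80.4 and 84.7 in ChREBPβ cells at 11 mM. Every ChREBPβ library was above every GFP library, and within each virus all libraries at 11 mM were above those at 2 mM. The rise was 4.03-fold at 2 mM (log2 2.01 ± 0.061, adjusted p = 4.08e-16) and 3.18-fold at 11 mM (1.67 ± 0.056, adjusted p = 4.45e-15). Gadd45b stood at 14.4, 15.9 and 15.0 CPM in GFP cells at 2 mM, 17.9, 15.7 and 17.5 in GFP cells at 11 mM, 26.1, 23.9 and 25.6 in ChREBPβ cells at 2 mM and 27.3, 27.6 and 27.7 in ChREBPβ cells at 11 mM. The ChREBPβ libraries were again all above those with GFP. Its log2 fold changes were 0.74 ± 0.066 (adjusted p = 1.1e-08) and 0.69 ± 0.062 (adjusted p = 1.77e-08). Gadd45g, the third member of the family, had log2 fold changes of -0.002 ± 0.050 (adjusted p = 0.973) and 0.18 ± 0.050 (adjusted p = 0.00648), neither called. It was instead lower in 11 mM glucose with GFP, at -0.27 ± 0.050 (adjusted p = 0.000319), a call that was lost without GFP replicate b at 11 mM (-0.22) or c at 2 mM (-0.25).

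**Figure D2:**
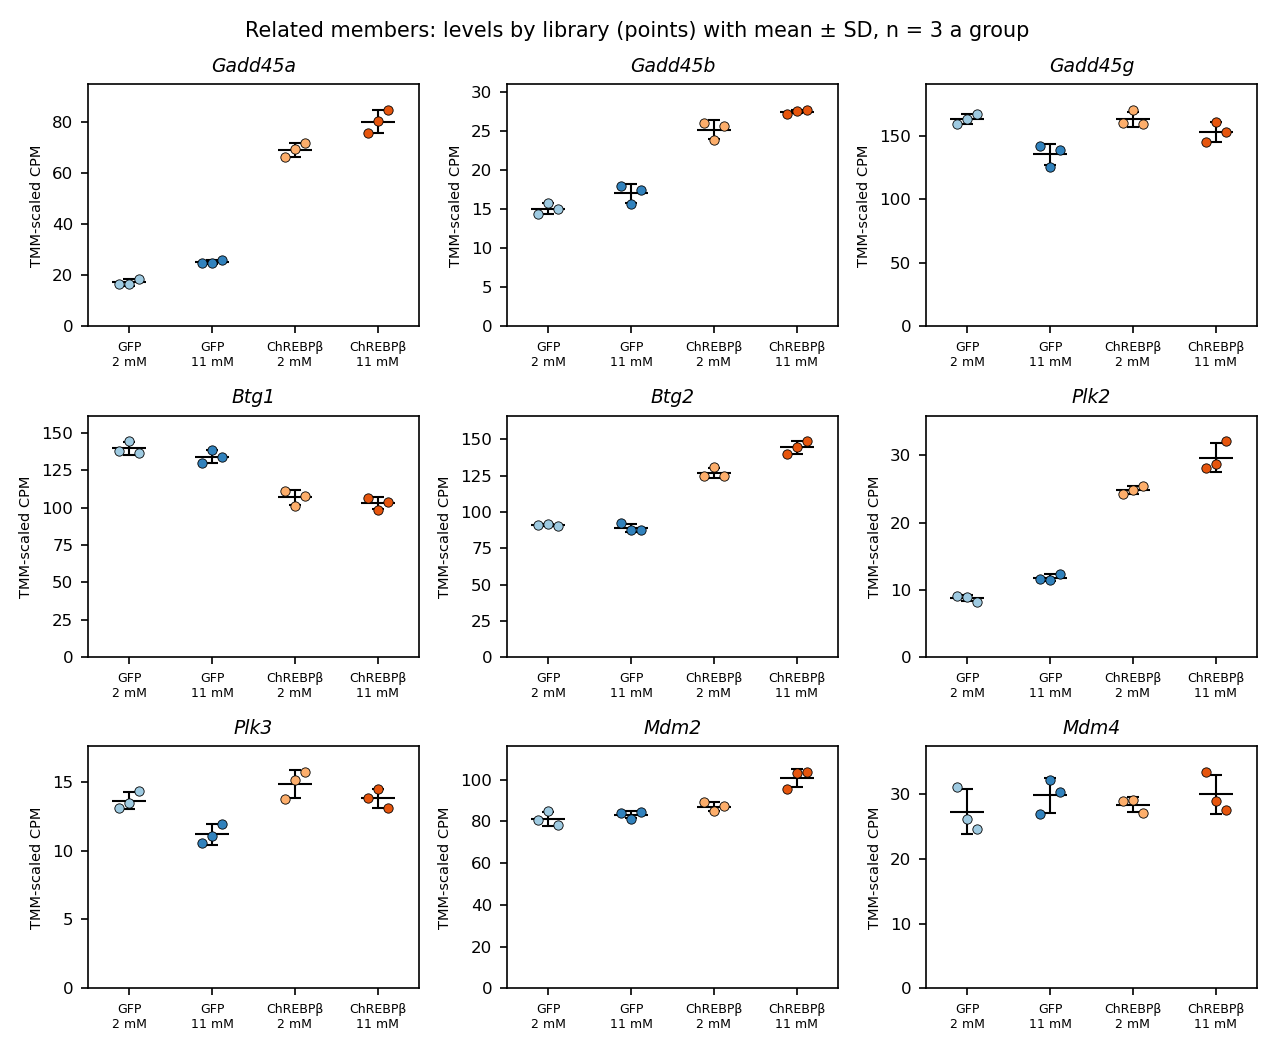
TMM-scaled CPM (vertical axis, from 0) of related members in the 4 groups, with each library as a point and the mean ± SD of 3; the panels set Gadd45a and Gadd45b beside Gadd45g and the other families side by side. The ChREBPβ libraries stand clear above the GFP libraries for Gadd45a, Gadd45b, Btg2 and Plk2 and clear below them for Btg1, while those of Gadd45g overlap at 2 mM.

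The polo-like kinases Plk2 and Plk3 are stress-induced relatives of the mitotic kinase Plk1. Plk2 was at 9.04, 8.98 and 8.24 CPM in GFP cells at 2 mM, 11.6, 11.4 and 12.4 in GFP cells at 11 mM, 24.3, 24.8 and 25.5 in ChREBPβ cells at 2 mM and 28.1, 28.7 and 32.1 in ChREBPβ cells at 11 mM. All ChREBPβ libraries exceeded all GFP libraries. Plk2 rose 2.84-fold at 2 mM (log2 1.51 ± 0.073, adjusted p = 8.21e-13) and 2.50-fold at 11 mM (1.32 ± 0.067, adjusted p = 2.13e-12). Plk3 gave 0.13 ± 0.077 (adjusted p = 0.156) at 2 mM and 0.30 ± 0.075 (adjusted p = 0.0023) at 11 mM, where it was called. That call was lost without GFP replicate a (0.26) and with scaling by library totals (0.22).

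Btg1 and Btg2, antiproliferative cofactors of the CCR4-NOT deadenylase, moved in opposite directions. Btg2 was at 91.3, 91.5 and 90.3 CPM in GFP cells at 2 mM, 92.3, 87.7 and 87.8 in GFP cells at 11 mM, 125, 131 and 125 in ChREBPβ cells at 2 mM and 140.0, 145 and 149 in ChREBPβ cells at 11 mM. The GFP groups overlapped each other and lay below all ChREBPβ libraries. Btg2 rose by 0.48 ± 0.041 (adjusted p = 5.5e-09) at 2 mM and 0.70 ± 0.041 (adjusted p = 2.32e-11) at 11 mM, on the log2 scale. Btg1 fell at both, with log2 fold changes of -0.39 ± 0.046 (adjusted p = 5.81e-07) and -0.38 ± 0.046 (adjusted p = 8.5e-07), and its ChREBPβ libraries all lay below its GFP libraries. Zmat3, an RNA-binding zinc finger protein, rose at both, by 0.46 ± 0.062 (adjusted p = 2.86e-06) and 0.35 ± 0.059 (adjusted p = 6e-05). Sertad1, a regulator of cyclin-dependent kinase 4 and of E2F, fell at 2 mM (-0.46 ± 0.14, adjusted p = 0.0094) and gave -0.21 ± 0.14 (adjusted p = 0.211) at 11 mM. Sesn1, an inhibitor of mTORC1 signalling, lay higher in all ChREBPβ libraries than in the GFP libraries at the same glucose, by 0.14 ± 0.049 (adjusted p = 0.0167) and 0.25 ± 0.047 (adjusted p = 0.000205), under the minimum fold change. The value of Sesn1 at 11 mM passed it with RLE factors (0.27), with DESeq2 (0.27) and without ChREBPβ replicate a (0.27).

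In the death and survival group 4 of the 8 tested rose and 1 fell at 2 mM (of all genes, 21% and 23.2%), and 5 rose and 1 fell at 11 mM (14.3% and 19.1%). Without Eda2r, which entered the test only through its ChREBPβ libraries, 3 of 7 rose at 2 mM and 4 of 7 at 11 mM. Phlda3 encodes a membrane-bound protein that competes with Akt, a survival kinase, and is a known restraint on islet cell growth. Its levels were 22.2, 25.3 and 22.7 CPM in GFP cells at 2 mM, 35.2, 31.0 and 33.6 in GFP cells at 11 mM, 50.1, 47.6 and 50.8 in ChREBPβ cells at 2 mM and 59.5, 69.9 and 65.9 in ChREBPβ cells at 11 mM. The 4 groups formed 4 separate steps, from GFP at 2 mM to ChREBPβ at 11 mM. With ChREBPβ it rose 2.11-fold (log2 1.08 ± 0.069, adjusted p = 5.64e-11) and 1.96-fold (0.97 ± 0.064, adjusted p = 1.45e-10). Aen, an apoptosis-enhancing nuclease, was at 47.8, 46.0 and 46.6 CPM in GFP cells at 2 mM, 66.0, 68.9 and 70.2 in GFP cells at 11 mM, 83.8, 85.8 and 89.8 in ChREBPβ cells at 2 mM and 101, 104 and 103 in ChREBPβ cells at 11 mM. Its groups were also separate steps in that order. The log2 fold changes were 0.89 ± 0.045 (adjusted p = 1.69e-12) at 2 mM and 0.59 ± 0.043 (adjusted p = 7.54e-10) at 11 mM.

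Tp53inp1, a stress protein with roles in autophagy and cell death, was at 4.67, 4.11 and 5.35 CPM in GFP cells at 2 mM, 4.82, 4.71 and 4.65 in GFP cells at 11 mM, 6.66, 6.85 and 7.70 in ChREBPβ cells at 2 mM and 9.07, 7.26 and 8.89 in ChREBPβ cells at 11 mM. The GFP groups overlapped, and both lay below all ChREBPβ libraries. It rose by 0.59 ± 0.12 (adjusted p = 0.000289) at 2 mM and 0.83 ± 0.11 (adjusted p = 4.19e-06) at 11 mM, on the log2 scale. Eda2r, a receptor of the tumour necrosis factor family for ectodysplasin A2, was barely detected, with 3, 6 and 2 counts with GFP at 2 mM, 3, 7 and 10 with GFP at 11 mM, 8, 17 and 23 with ChREBPβ at 2 mM and 23, 13 and 33 with ChREBPβ at 11 mM. Scaled for depth, these were 0.110, 0.175 and 0.0641 CPM in GFP cells at 2 mM, 0.0664, 0.187 and 0.212 in GFP cells at 11 mM, 0.286, 0.303 and 0.412 in ChREBPβ cells at 2 mM and 0.392, 0.228 and 0.603 in ChREBPβ cells at 11 mM. The groups did not overlap at either glucose level, with large errors: 1.50 ± 0.57 (adjusted p = 0.0297) and 1.38 ± 0.47 (adjusted p = 0.0207). Since Eda2r entered the test only through its ChREBPβ libraries, these values do not count as evidence of a rise. The call at 2 mM was lost without ChREBPβ replicate c (1.31) or GFP replicate a (1.46) or c (1.21), and that at 11 mM without ChREBPβ replicate c (1.00) or GFP replicate a (1.01).

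Perp, a membrane protein of cell junctions that p53 can use in apoptosis, went the other way. It was at 156, 159.7 and 162 CPM in GFP cells at 2 mM, 142, 139 and 132 in GFP cells at 11 mM, 93.8, 94.8 and 90.2 in ChREBPβ cells at 2 mM and 89.9, 95.0 and 95.8 in ChREBPβ cells at 11 mM. All ChREBPβ libraries lay below all GFP libraries, and the ChREBPβ groups overlapped. The log2 fold changes were -0.78 ± 0.043 (adjusted p = 5.62e-12) and -0.56 ± 0.042 (adjusted p = 1.15e-09). The death receptor Fas gave 0.29 ± 0.13 (adjusted p = 0.0564) at 2 mM and 0.29 ± 0.12 (adjusted p = 0.0457) at 11 mM, where it was just called although the groups overlapped. That call was lost in each of 6 fits that left out 1 library, ChREBPβ replicates b (0.30) and c (0.23) and GFP replicates b (0.20) and c (0.25) at 11 mM, ChREBPβ replicate c (0.29) and GFP replicate b (0.29) at 2 mM, and it was gained at 2 mM without GFP replicate a (0.30) or b (0.30) at 11 mM. With replicate as a block its adjusted p at 11 mM was 0.0573. Bax, the pore-forming effector of mitochondrial apoptosis, lay above GFP in all ChREBPβ libraries at each glucose level, by 0.20 ± 0.057 (adjusted p = 0.0055) and 0.22 ± 0.056 (adjusted p = 0.00307), short of 1.2-fold, which it exceeded at 11 mM without GFP replicate a (0.28). Ei24, a protein of the endoplasmic reticulum, gave 0.14 ± 0.038 (adjusted p = 0.0047) and 0.082 ± 0.038 (adjusted p = 0.0807).

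**Figure D3:**
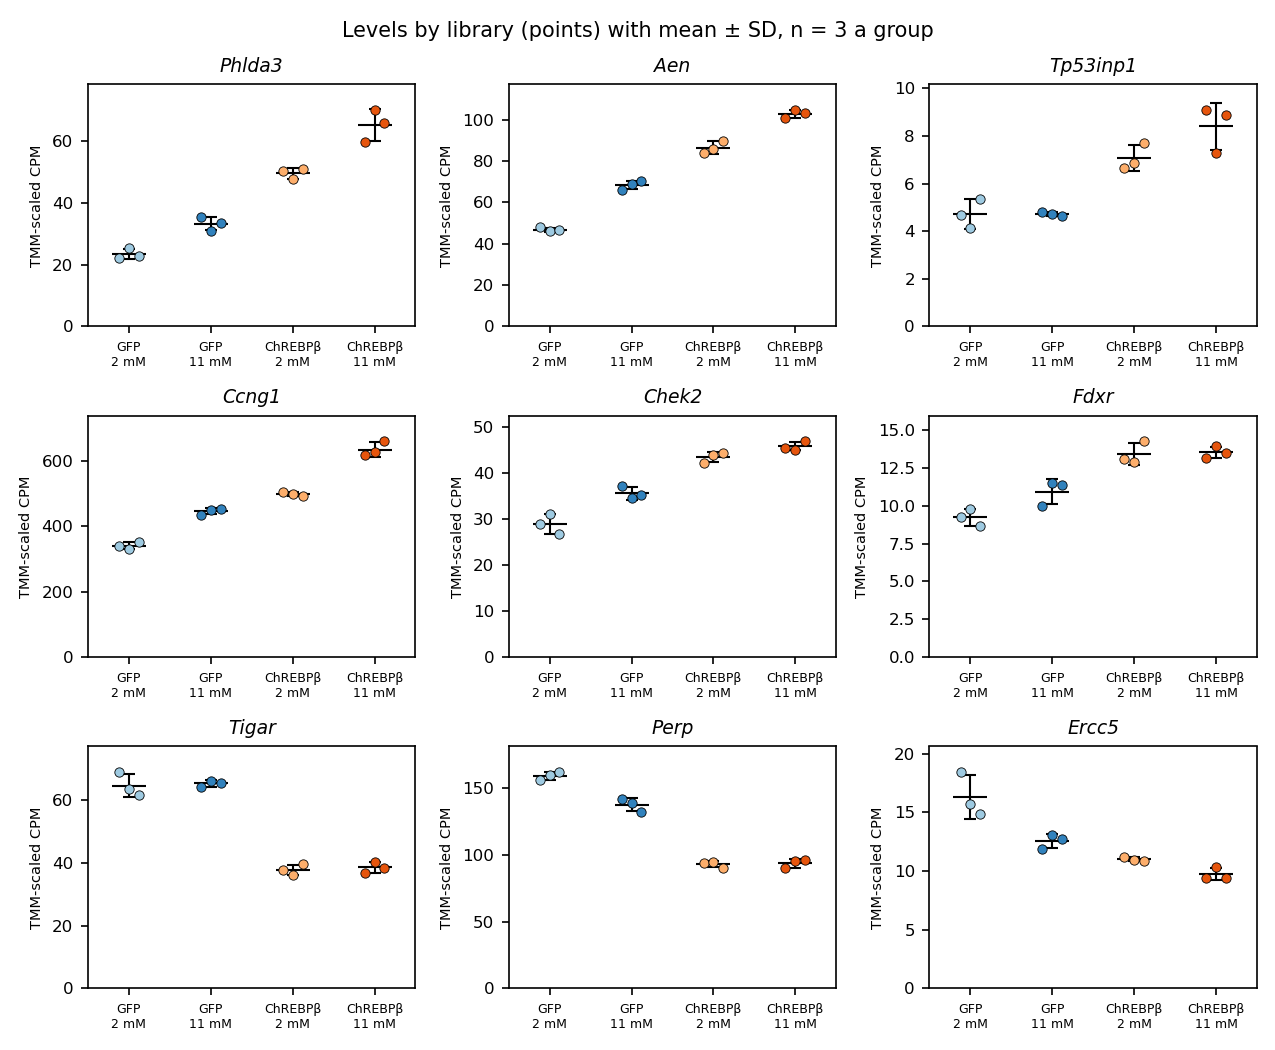
TMM-scaled CPM (vertical axis, from 0) of 9 members in the 4 groups, with each library as a point and the mean ± SD of 3. Phlda3, Aen, Tp53inp1, Ccng1, Chek2 and Fdxr have all ChREBPβ libraries above all GFP libraries, and Tigar, Perp and Ercc5 all below.

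The 3 metabolic and autophagy members split 3 ways. Tigar, a phosphatase that lowers fructose-2,6-bisphosphate and so slows glycolysis, was at 68.9, 63.5 and 61.6 CPM in GFP cells at 2 mM, 64.2, 66.2 and 65.6 in GFP cells at 11 mM, 37.6, 36.2 and 39.5 in ChREBPβ cells at 2 mM and 36.7, 40.4 and 38.5 in ChREBPβ cells at 11 mM. The 2 glucose levels overlapped within each virus, and all ChREBPβ libraries lay below all GFP libraries. Tigar fell to 0.585 of the GFP level at 2 mM (log2 -0.77 ± 0.054, adjusted p = 2.3e-10) and to 0.590 at 11 mM (-0.76 ± 0.053, adjusted p = 2.86e-10). Fdxr, the reductase that feeds electrons to mitochondrial ferredoxins, was at 9.26, 9.77 and 8.65 CPM in GFP cells at 2 mM, 10.00, 11.5 and 11.3 in GFP cells at 11 mM, 13.1, 12.9 and 14.2 in ChREBPβ cells at 2 mM and 13.1, 13.9 and 13.5 in ChREBPβ cells at 11 mM. All its ChREBPβ libraries lay above all GFP libraries. It rose by 0.54 ± 0.082 (adjusted p = 1.11e-05) and 0.31 ± 0.076 (adjusted p = 0.00234) on the log2 scale, and the call at 11 mM was lost without GFP replicate a (0.24) and with scaling by library totals (0.22). Dram1, a lysosomal protein of p53-induced autophagy, gave -0.083 ± 0.12 (adjusted p = 0.587) and -0.27 ± 0.12 (adjusted p = 0.0613), not called. At 11 mM it became a lower call without GFP replicate c (-0.36).

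In the DNA repair and nucleotide supply group no member rose with ChREBPβ. All 5 had a negative log2 fold change at both glucose levels, with 3 called lower at 2 mM, where 23.2% of all genes were, and 1 at 11 mM, a share near the 19.1% of all genes. By edgeR's unadjusted p under 0.05 the number higher was also 0 at each. Ercc5 encodes XPG, the nuclease that makes the 3′ cut in nucleotide excision repair. It was at 18.4, 15.7 and 14.9 CPM in GFP cells at 2 mM, 11.9, 13.1 and 12.7 in GFP cells at 11 mM, 11.2, 11.0 and 10.9 in ChREBPβ cells at 2 mM and 9.45, 10.3 and 9.44 in ChREBPβ cells at 11 mM. All ChREBPβ libraries lay below all GFP libraries. Ercc5 fell at both glucose levels, with log2 fold changes of -0.56 ± 0.083 (adjusted p = 7.8e-06) and -0.37 ± 0.081 (adjusted p = 0.000906). Rrm2b, the p53-inducible subunit of ribonucleotide reductase, was at 7.64, 8.92 and 6.44 CPM in GFP cells at 2 mM, 5.95, 5.01 and 4.91 in GFP cells at 11 mM, 6.20, 4.44 and 4.49 in ChREBPβ cells at 2 mM and 4.57, 4.23 and 3.68 in ChREBPβ cells at 11 mM. Its highest level was with GFP at 2 mM, and the other groups overlapped in part. The log2 fold changes were -0.64 ± 0.15 (adjusted p = 0.000863) at 2 mM and -0.35 ± 0.14 (adjusted p = 0.0528) at 11 mM, the latter at the edge of the threshold: it was called in 4 of the fits that left out 1 library, ChREBPβ replicate a at 11 mM (-0.42) or 2 mM (-0.34) or GFP replicate b (-0.35) or c (-0.35) at 2 mM.

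Polk, a DNA polymerase that copies past damaged bases, fell at 2 mM (-0.33 ± 0.077, adjusted p = 0.00121). At 11 mM it gave -0.24 ± 0.073 (adjusted p = 0.0103), under the minimum fold change, which it passed without ChREBPβ replicate a (-0.29) or c (-0.27) or GFP replicate a (-0.29). Xpc and Ddb2 encode the sensors that find helix-distorting damage. Xpc gave -0.15 ± 0.057 (adjusted p = 0.0275) and -0.19 ± 0.055 (adjusted p = 0.00626), and Ddb2, at 1.05 to 2.15 CPM in all libraries, gave -0.26 ± 0.21 (adjusted p = 0.311) and -0.070 ± 0.21 (adjusted p = 0.806). Neither was called. With scaling by library totals Rrm2b (-0.43), Polk (-0.32), Xpc (-0.28), Dram1 (-0.36) and Atr (-0.32) became lower calls at 11 mM.

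Of the damage kinases, which phosphorylate p53 and its regulators, Chek2 alone rose with ChREBPβ. It was at 29.0, 31.1 and 26.7 CPM in GFP cells at 2 mM, 37.2, 34.5 and 35.1 in GFP cells at 11 mM, 42.2, 43.9 and 44.3 in ChREBPβ cells at 2 mM and 45.5, 45.1 and 46.9 in ChREBPβ cells at 11 mM. The GFP and ChREBPβ groups did not overlap, and within each virus the 11 mM libraries lay above those at 2 mM. Chek2 rose by 0.59 ± 0.057 (adjusted p = 2.63e-08) at 2 mM and 0.36 ± 0.054 (adjusted p = 1.29e-05) at 11 mM, on the log2 scale. Atm, the kinase of double-strand breaks, gave 0.11 ± 0.10 (adjusted p = 0.357) and 0.053 ± 0.10 (adjusted p = 0.682). Atr, the kinase of stalled replication forks, gave 0.082 ± 0.072 (adjusted p = 0.346) and -0.24 ± 0.069 (adjusted p = 0.00747), and the latter, under the minimum fold change, became a call without ChREBPβ replicate a (-0.29).

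The next comparison was that of 11 with 2 mM glucose in cells with the control virus. With GFP, 7 of the 33 members rose and 4 fell, 33.3%, against 20.2% of all genes (10.2% rose and 10% fell). The median was 0.075 beside -0.0024 over all genes, and 18 members (13 higher and 5 lower) had groups that did not overlap, against 42% of all genes (21.8% higher and 20.3% lower). Those that rose were Gadd45a (0.55 ± 0.063, adjusted p = 1.48e-06), Aen (0.55 ± 0.045, adjusted p = 2.58e-08), Phlda3 (0.51 ± 0.070, adjusted p = 1.29e-05), Plk2 (0.43 ± 0.078, adjusted p = 0.000207), Ccng1 (0.39 ± 0.039, adjusted p = 2.75e-07), Chek2 (0.30 ± 0.057, adjusted p = 0.000374) and Atr (0.28 ± 0.072, adjusted p = 0.00514). Their levels with GFP in each library are given above for all but Atr, which was at 31.1, 26.0 and 27.7 CPM at 2 mM and 33.6, 35.5 and 33.5 at 11 mM. Leaving out 1 library ended the calls of Chek2 (without replicate c at 2 mM, 0.25) and of Atr (without replicate b at 11 mM, 0.25, or at 2 mM, 0.22). The β-cell marker sum was also lower at 11 mM with GFP, as given above, while Slc2a2 was at 489 against 438 CPM, and their part in these changes was not tested.

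Those that fell with glucose were Rrm2b (-0.54 ± 0.14, adjusted p = 0.0068), Ercc5 (-0.38 ± 0.082, adjusted p = 0.00134), Plk3 (-0.29 ± 0.079, adjusted p = 0.00806) and Gadd45g, named above. Plk3 was no longer called without replicate a at 11 mM (-0.24) or c at 2 mM (-0.25), nor Rrm2b without replicate b at 2 mM (-0.41), so 2 to 4 members fell over the 12 fits with 1 library left out. Just under the minimum, Fdxr (0.24 ± 0.083, adjusted p = 0.0296) became a call without replicate a at 11 mM (0.30) or b at 2 mM (0.29), Zmat3 (0.24 ± 0.063, adjusted p = 0.00629) without c at 11 mM (0.27) or a at 2 mM (0.29), and Fas (0.31 ± 0.13, adjusted p = 0.0683) without b at 11 mM (0.40). The glucose and virus comparisons share their GFP libraries at 2 or 11 mM, so their values stand side by side here and no relation between them was computed.

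The same glucose comparison in ChREBPβ cells gave 2 calls. Phlda3 (0.40 ± 0.062, adjusted p = 0.000468) and Ccng1 (0.35 ± 0.039, adjusted p = 1.16e-05) rose and none fell (edgeR, 1 lower at an unadjusted p under 0.05; DESeq2 also called 0 lower), 6.06% of the 33 against 3.87% of all genes (0.988% rose and 2.88% fell). Both also rose with GFP (100% of these 2, and 28.6% of the 7), an overlap that was not computed over all genes. Values under the minimum fold change were Aen at 0.25 ± 0.043 (adjusted p = 0.00102), Plk2 at 0.25 ± 0.063 (adjusted p = 0.0176), Gadd45a at 0.21 ± 0.053 (adjusted p = 0.0177), Mdm2 at 0.21 ± 0.045 (adjusted p = 0.00612), Btg2 at 0.19 ± 0.040 (adjusted p = 0.00666) and Sesn1 at 0.19 ± 0.047 (adjusted p = 0.0153). Aen passed it without ChREBPβ replicate c at 2 mM (0.28), and Plk2 without replicate a (0.29) or b (0.27) at 11 mM. The 3 libraries at 11 mM lay apart from those at 2 mM in 13 members, 12 of them higher, against 28.9% of all genes (14% higher and 14.9% lower). The median was 0.048, beside 0.0030 over all genes.

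Whether the effect of ChREBPβ differed between glucose levels was tested by the interaction, the log2 fold change at 11 mM minus that at 2 mM. It was called for 2 members, both with the smaller rise at 11 mM: Gadd45a (-0.34 ± 0.083, adjusted p = 0.0132) and Aen (-0.30 ± 0.062, adjusted p = 0.00456). This is 6.06% of the members against 6.31% of all genes (1.56% higher and 4.74% lower), so the share was at the background. The same number is the difference between the glucose effect with ChREBPβ and with GFP, and both genes rose less with glucose when ChREBPβ was present. Neither passed a test against a difference of 1.2-fold (glmTreat, adjusted p = 0.882 and 1). Btg2 (0.21 ± 0.058, adjusted p = 0.0269) and Perp (0.22 ± 0.060, adjusted p = 0.0271) were under the minimum. Atr had -0.32 ± 0.10 (adjusted p = 0.0547) and became a call without ChREBPβ replicate a at 11 mM (-0.37) or c at 2 mM (-0.39) or GFP replicate a at 2 mM (-0.39), and Chek2 (-0.23 ± 0.078, adjusted p = 0.0841) without GFP replicate b at 2 mM (-0.29).

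**Figure D4:**
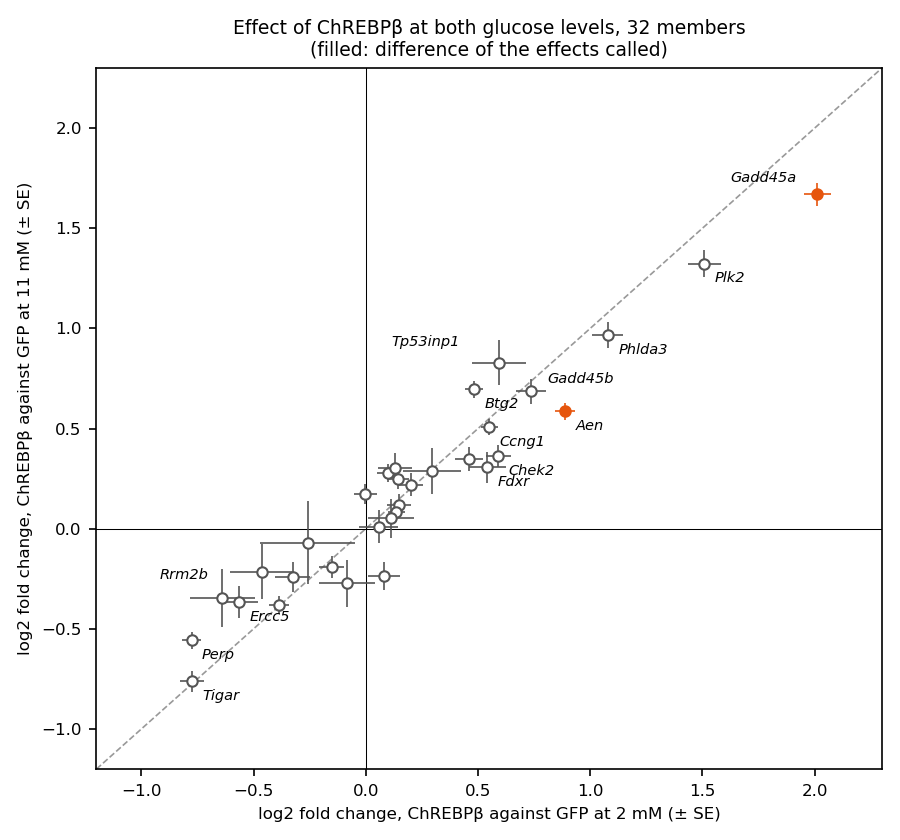
Log2 fold change of ChREBPβ against GFP at 11 mM (vertical axis) against that at 2 mM (horizontal axis), bars ± SE, for 32 tested members (Eda2r, with the widest errors, is left out); the dashed line marks equal effects and filled points the called differences. Gadd45a (2.01 at 2 mM, 1.67 at 11 mM) and Aen (0.89 and 0.59) lie below the line; the other members' differences were not called.

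The 9 tested members called in no comparison were Atm, Bax, Ddb2, Dram1, Ei24, Mdm4, Ppm1d, Sesn1 and Xpc. Their log2 fold changes in ChREBPβ against GFP cells lay between -0.26 and 0.20 at 2 mM, and between -0.27 and 0.25 at 11 mM. In 11 against 2 mM glucose with GFP they lay between -0.41 and 0.13. A value under the minimum fold change does not show that a gene did not change: 5 of the 9 had an adjusted p under 0.05 at 2 mM and 3 at 11 mM.

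Other genes of the p53 pathway were taken from a list of 24, of which 17 could be tested. Of these, 7 rose and 7 fell at 2 mM (82.4%) and 7 rose and 6 fell at 11 mM (76.5%), against 44.1% and 33.4% of all genes, with medians of -0.11 and -0.089. This list, too, was chosen with earlier results of these data known. Cdkn1a, the p21 inhibitor of cyclin-dependent kinases and the best known p53 target, was at 49.2, 49.5 and 50.2 CPM in GFP cells at 2 mM, 70.6, 65.5 and 71.4 in GFP cells at 11 mM, 116, 118 and 119.6 in ChREBPβ cells at 2 mM and 155, 166 and 167 in ChREBPβ cells at 11 mM. The 4 groups did not overlap. It rose with ChREBPβ by 1.24 ± 0.047 (adjusted p = 1.26e-14) and 1.23 ± 0.045 (adjusted p = 1.43e-14), and with glucose it rose in GFP cells (0.48 ± 0.047, adjusted p = 2.22e-07) and in ChREBPβ cells (0.47 ± 0.044, adjusted p = 1.56e-06). Its interaction was -0.012 ± 0.064 (adjusted p = 0.944), beside the called differences of Gadd45a and Aen.

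The other genes of that list with a called change of at least 1 on the log2 scale were Steap3, a metalloreductase that p53 induces, Tp53i11 and Tp53i13. Steap3 rose by 1.26 ± 0.16 (adjusted p = 1e-06) and 1.11 ± 0.14 (adjusted p = 1.24e-06). Tp53i11 rose by 1.25 ± 0.044 (adjusted p = 4.66e-15) and 1.09 ± 0.043 (adjusted p = 4.97e-14). Tp53i13 had the opposite sign, at -1.11 ± 0.10 (adjusted p = 2.01e-08) and -0.91 ± 0.10 (adjusted p = 3.26e-07). Sesn2, the relative of Sesn1, fell by 0.51 and 0.28, and Gdf15, a stress cytokine, fell by 0.58 and 0.41, both named after their values were seen. Among the 35 damage sensors, mediators and repair factors, 9 rose and 2 fell at 2 mM (31.4%, under the 44.1% of all genes) and 4 rose and 3 fell at 11 mM (20%, under 33.4%). By direction, 21% of all genes rose and 23.2% fell at 2 mM, and 14.3% rose and 19.1% fell at 11 mM. None of the 35 reached a change of 1 in either virus comparison. With glucose and GFP 6 rose and none fell (17.1%, under the 20.2% of all genes, where 10.2% rose and 10% fell). By edgeR's unadjusted p under 0.05, 13 were higher and 3 lower. With glucose and ChREBPβ none was called, beside 3.87% of all genes, and 3 were lower and 0 higher at an unadjusted p under 0.05.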

How the data were processed

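RNA from 12 INS-1 832/13 libraries was amplified (NuGEN Ovation RNA-Seq System V2) and sequenced as paired ends. The authors deposited raw read counts per gene without normalization, on Rnor_6.0 per the submitters' processing notes, which also name edgeR. The aligner, counter, annotation and use of strand were not given in the sources used here, so reads of overlapping and antisense genes cannot be told apart. Amplified reads are not independent molecules. Groups came from the sample labels. The authors' means of raw counts per group, in the same table, were not used.

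The table had 28728 rows. The 1 row without a gene name (0.0043 to 0.0060% of counts) was dropped. Counts were analysed in R 4.3.3 with edgeR 4.0.16: filterByExpr by group, TMM factors, and 1 quasi-likelihood fit of all 12 libraries with group as the only term, so that the groups share an estimate of the spread. P-values were adjusted by Benjamini-Hochberg over the 14669 genes tested. A gene was called where the adjusted p was below 0.05 and the fold change 1.2 or more. SEs are absolute log2 fold changes over the root of F. Replicates differed beyond counting noise in every group (chi-square per degree of freedom 3.09 to 17.3), so none was counted as a duplicate. The fit was tested on simulated counts.

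Members were chosen by name. The members and lists were chosen with earlier results of these data known. Members called with a change of at least 0.5 on the log2 scale (ChREBPβ at either glucose, glucose with GFP, or interaction) are given in every library, the others by fold change or range. Of the further p53 list, Cdkn1a and those changed by at least 1 are named. Sesn2 and Gdf15, which changed by less, were added after their values were seen, and other called genes of that list are not named. Single values of some listed genes are not reported here. Alternatives were RLE factors, library totals, DESeq2 1.42.0, no low-count filter or at least 10 counts in every library, no minimum fold, glmTreat, only the groups compared, the replicate letter as a block, and each library left out. Promoters (RefSeq, GRCr8) were used for sequence only.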

Additional observations from a re-analysis of the deposited data

Results flagged for a closer look

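By edgeR's interaction test, the effect of ChREBPβ was called different between the 2 glucose levels for 2 members. A further 4 damage response genes with the same call are named below. The log2 difference (11 minus 2 mM) was -0.34 for Gadd45a and -0.30 for Aen, described above. Neither passed the test against 1.2-fold (glmTreat), and the share of members called, 6.06%, was at the background of 6.31%.

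In the list of damage sensors, mediators and repair factors it was -0.37 ± 0.090 (adjusted p = 0.0142) for Rad1, part of the checkpoint clamp, and -0.34 ± 0.069 (adjusted p = 0.0043) for Clspn, the claspin adaptor of Chek1. For Fancd2 and Brca1, which act in crosslink and break repair, it was -0.27 ± 0.062 (adjusted p = 0.00953) and -0.26 ± 0.076 (adjusted p = 0.0373). All 4 were named after their values were seen, and Brca1 was only just past the minimum fold change. The difference was called for 6.31% of all genes, and for 1.32% when tested against 1.2-fold (glmTreat). The alternatives were read out by gene for members only, so these 4 calls were not checked against them. The effect of ChREBPβ on Rad1 was 0.41 at 2 mM and 0.038 at 11 mM. The same pair of values was, for Clspn 0.38 and 0.043, for Brca1 0.31 and 0.043, and for Fancd2 0.25 and -0.020.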

How the results depend on the processing

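No member's called direction reversed under any alternative. Of the alternative values for single members, 3311 kept their side of the threshold, 61 crossed it to become calls and 53 ceased to be calls. Those that kept their side include values called in neither fit. Settings that move the threshold itself are in this tally: no minimum fold change gave 22 of the 61, and glmTreat 22 of the 53. With library totals 9 members fell with ChREBPβ at 11 mM, in place of 4. With no minimum fold change 7 fell at 11 mM, 8 rose with glucose in ChREBPβ cells, and 4 had a called interaction. Tested against 1.2-fold (glmTreat), 8 rose with ChREBPβ at 11 mM, 4 rose and 0 fell with glucose and GFP, 0 rose with glucose and ChREBPβ, and 0 had a called interaction. Over the fits with each library left out, 11 to 13 members rose with ChREBPβ at 2 mM and 12 to 16 at 11 mM (12 without ChREBPβ replicate c at 11 mM). In the same fits 4 to 7 members fell with ChREBPβ at 11 mM (7 without ChREBPβ replicate a at 11 mM) and 2 to 4 fell with glucose and GFP (2 without GFP replicate c at 2 mM). Eda2r and Ddb2 are limited by depth.

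With the replicate letter as a replicate block, 12 members rose and 7 fell at 2 mM and 14 rose and 6 fell at 11 mM, where Fas was lost and Dram1 (-0.27) and Rrm2b (-0.35) were gained. The interaction of Atr (-0.32) was gained, and no other member's call changed. The letters did not pair the libraries: 1 of 18 same-letter pairs had a correlation of deviations over 0.1 (range -0.22 to 0.13).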
